A study of Mus musculus with 8 samples.

Results

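The matrix metalloproteinase (Mmp), tissue inhibitor of metalloproteinase (Timp), Adamts and Adamts-like (Adamtsl) genes were followed in mouse embryonic fibroblasts after 4 days in 4 media. Members were all protein-coding genes whose symbol is Mmp, Timp, Adamts or Adamtsl and a number, with a trailing letter allowed for Mmp, which gave 50 of the 54532 genes counted: 22 Mmp, 4 Timp, 19 Adamts and 5 Adamtsl genes. The choice used names and no cutoff on a measured value, but was made with earlier results of these data known. Of the 50 members, 39 had enough counts to be tested (15 Mmp, 3 Timp, 17 Adamts and 4 Adamtsl genes).

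All cells were wild-type embryonic fibroblasts, a mixed primary population, with 2 libraries per medium. All 3 treated groups received CHIR99021 (a GSK-3 inhibitor), Forskolin (which activates adenylyl cyclase), AM580 (a retinoic acid receptor agonist) and the compound labelled EPZ04777, a base mixture written CFAE. CFAE+8 cells also received A-83-01, an inhibitor of the TGF-beta type I receptor. CFAE+6 cells received E-616452, another inhibitor of that receptor, in its place. CFAE+8+MSC cells received A-83-01 together with MSC2530818, an inhibitor of the kinases CDK8 and CDK19. MEF cells, the control of all 3, were kept in fibroblast medium. Doses are not given in the labels, so differences between A-83-01 and E-616452 cannot be told apart from differences in dose.

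Matrix metalloproteinases are zinc enzymes made as inactive precursors. They cleave collagens, proteoglycans, glycoproteins and other proteases, either after secretion or from the cell surface. Timp proteins bind the active site and inhibit them. Adamts enzymes are secreted relatives with thrombospondin repeats that cleave large proteoglycans or trim procollagens, while Adamtsl proteins share the repeats but lack the protease domain. Fibroblasts are a main source of these proteins in connective tissue, and transcript levels say nothing of how much of a protease is activated or inhibited.

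Library totals lay between 10958430 and 11913143 counts, and 15470 genes were tested. At this depth 3 counts, the limit that a count of 0 allows in a library, correspond to 0.254 to 0.285 CPM (CPM is the count scaled to library size, here with TMM factors, and limits of this kind cover counting error only). All 13 fibroblast markers examined were detected in every group, and their summed level was 14306 to 14381 CPM in CFAE+8, 13439 to 13958 in CFAE+6, 14354 to 14782 in CFAE+8+MSC, against 31097 to 31858 in MEF. The lowest of them, S100a4, averaged 0.297 ± 0.299, 0.739 ± 0.0768 and 0.978 ± 0.280 CPM in CFAE+8, CFAE+6 and CFAE+8+MSC, against 5.45 ± 0.188 CPM in MEF (mean ± SD, n = 2 each). The 13 markers did not move together: 5, 5 and 5 were higher and 8, 8 and 7 lower than in MEF (adjusted p under 0.05). Their median log2 fold changes were -0.39, -0.46 and -0.25. Among all tested genes 30.8%, 31.6% and 31.9% were higher and 31.3%, 31.5% and 32.2% lower. Summed epithelial markers were at 11.6 to 12.5 CPM in CFAE+8, 41.9 to 42.1 in CFAE+6, 47.9 to 49.2 in CFAE+8+MSC, against 22.2 to 26.4 in MEF, mesothelial markers at 3.90 to 4.18 CPM in CFAE+8, 17.5 to 18.9 in CFAE+6, 18.2 to 21.05 in CFAE+8+MSC, against 158 to 161 in MEF, and endothelial markers at 37.7 to 39.4 CPM in CFAE+8, 77.5 to 79.1 in CFAE+6, 80.9 to 81.5 in CFAE+8+MSC, against 133 to 146 in MEF. Their part in the results was not tested. Mitochondrial transcripts took 1.96 to 2.21% of counts in the cocktails, against 1.21 to 1.24% in MEF, and the part of this difference in the results below was not tested. The labels do not say that the libraries of a medium came from separate cultures. The spread behind each p-value is that between these libraries, drawn by the fit towards that of other genes, and may be technical.

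A few abundant transcripts carried the Mmp and Timp families. Mmp14 (MT1-MMP, a membrane-anchored collagenase that also activates the Mmp2 precursor), Mmp2 (gelatinase A) and Mmp11 (stromelysin-3) stood above all other Mmp genes in the cocktails. Per kilobase of transcript, Mmp11 was at 249, 208 and 279 CPM in CFAE+8, CFAE+6 and CFAE+8+MSC, against 23.9 in MEF. Mmp2 was at 188, 251 and 222, against 179 in MEF, and Mmp14 at 188, 185 and 223, against 185. On this scale Mmp11 lay above both Mmp2 and Mmp14 in CFAE+8 and CFAE+8+MSC, between them in CFAE+6 and below both in MEF. Timp2 was the leading inhibitor in every group, at 342, 299.6 and 296 CPM per kilobase, against 634 in MEF.

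**Figure D1:**
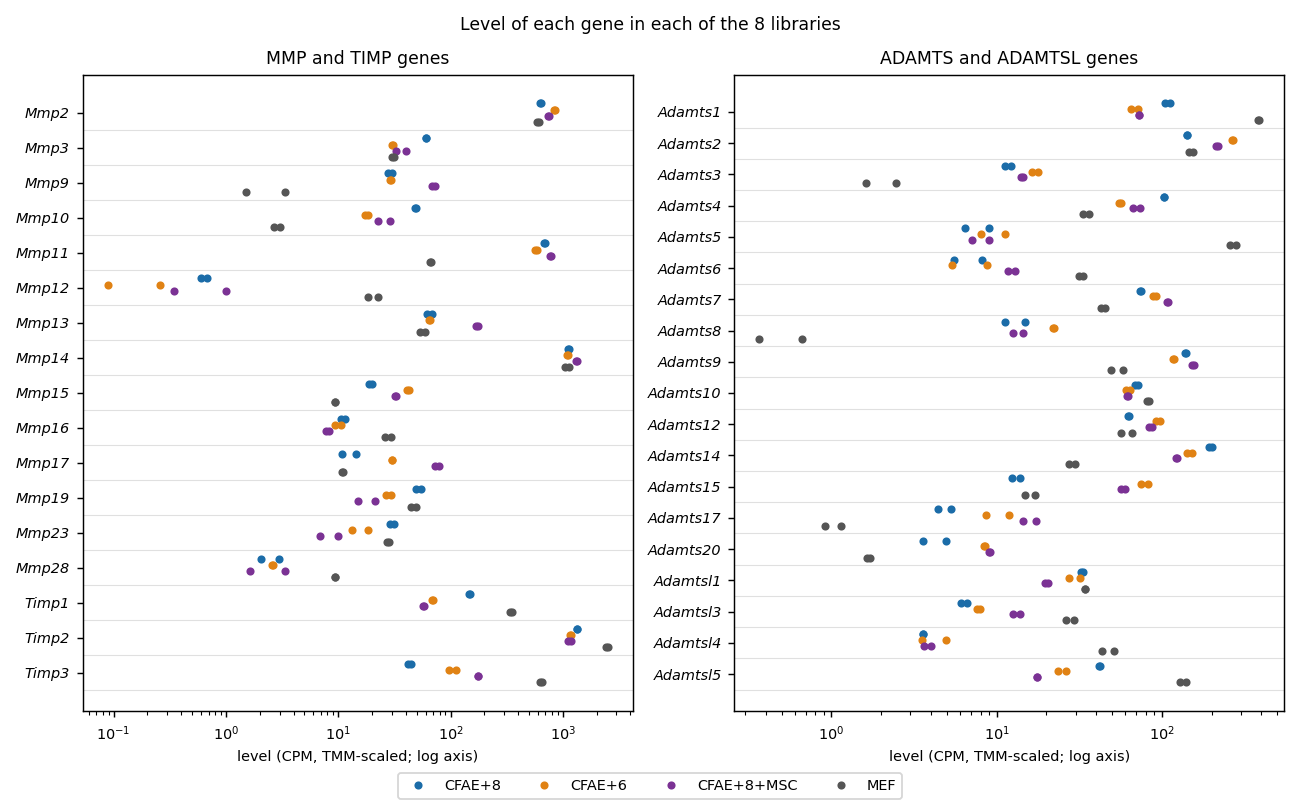
CPM level, on a log axis, of the tested genes whose group mean reaches 5 CPM in any medium; each point is 1 library, coloured by medium. The left panel holds Mmp and Timp genes and the right panel Adamts and Adamtsl genes; Adamts5 lies at 6.45 to 11.3 CPM in the 6 cocktail libraries, against 259 and 280.3 CPM in MEF.

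The summed level of the Mmp genes was higher and that of the Timp genes lower in each cocktail than in MEF. Summed per kilobase, Mmp transcripts were at 756 ± 8.97 in CFAE+8, 733 ± 9.77 in CFAE+6, 873 ± 19.8 in CFAE+8+MSC, against 466 ± 16.2 in MEF (CPM per kilobase, mean ± SD, n = 2 each). Timp transcripts were at 515 ± 2.40 in CFAE+8, 391 ± 3.03 in CFAE+6, 382 ± 13.7 in CFAE+8+MSC, against 1098 ± 4.37 in MEF. The ratio of the 2 sums was 1.48 and 1.46 in the CFAE+8 libraries, 1.85 and 1.90 in CFAE+6 and 2.26 and 2.31 in CFAE+8+MSC, against 0.415 and 0.433 in MEF. No library of a cocktail overlapped MEF in this ratio, which compares transcripts and not proteins. Adamts transcripts were at 144 ± 0.351 in CFAE+8, 144 ± 0.0983 in CFAE+6, 139 ± 2.28 in CFAE+8+MSC, against 164 ± 5.40 in MEF. Adamtsl transcripts were at 13.1 ± 0.115 in CFAE+8, 9.63 ± 0.0173 in CFAE+6, 7.90 ± 0.107 in CFAE+8+MSC, against 46.2 ± 2.92 in MEF.

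**Figure D2:**
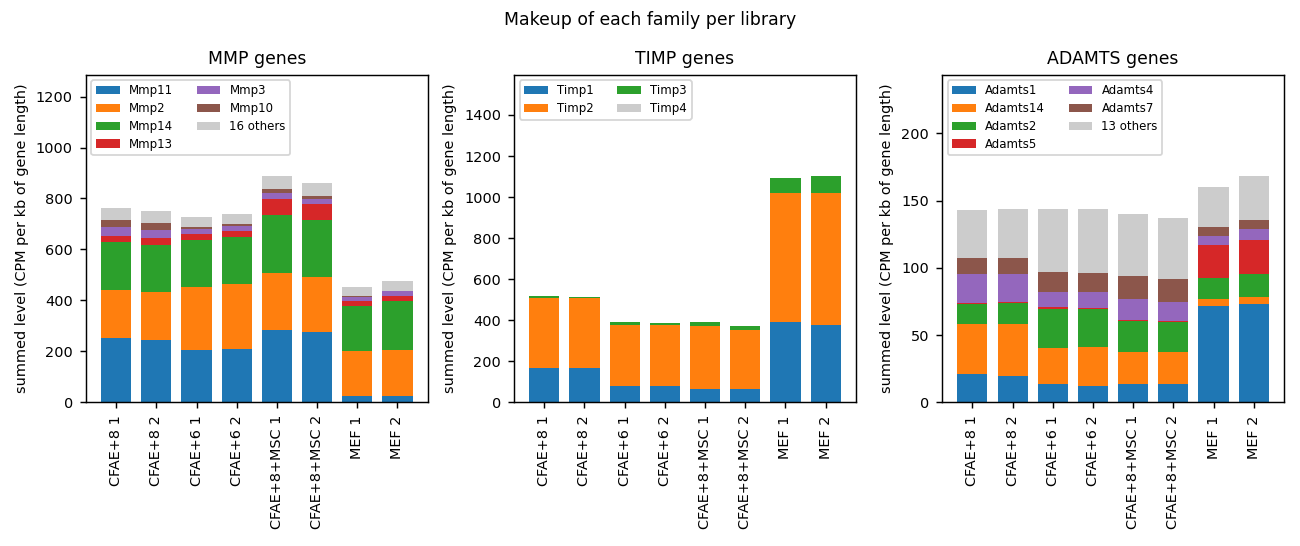
Summed level of the Mmp, Timp and Adamts genes in each of the 8 libraries, in CPM per kilobase of gene length, with each bar divided by its leading genes and the others of the family. Mmp11 adds 249, 208 and 279 on average in CFAE+8, CFAE+6 and CFAE+8+MSC, against 23.9 in MEF, and Timp1 adds 168, 78.3 and 64.7, against 386 in MEF.

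Against MEF, several Mmp and Adamts genes rose in the cocktails, while the 3 tested Timp genes and most Adamtsl genes fell. In CFAE+8, 15 of the 39 tested members rose and 15 fell (edgeR quasi-likelihood test, adjusted p under 0.05 over all genes tested), where 30.8% of all tested genes rose and 31.3% fell (62.0% together). In CFAE+6, 19 rose and 15 fell, against 31.6% and 31.5% of all genes (63.1% together). In CFAE+8+MSC, 22 rose and 16 fell, against 31.9% and 32.2% of all genes (64.1% together). The median log2 fold change of the 39 members was 0.07, 0.20 and 0.48 in CFAE+8, CFAE+6 and CFAE+8+MSC, against 0.01, 0.02 and 0.01 over all genes tested. The tested members had a median level of 36.3 CPM, against 21.8 CPM over all tested genes. Among genes with a mean of 30 to 100 CPM, 9, 11 and 12 of 12 members were called in CFAE+8, CFAE+6 and CFAE+8+MSC, where 70.8%, 72.8% and 72.9% of all genes were. Under 10 CPM, 6, 5 and 6 of 7 members were called, where 46.7%, 47.9% and 49.8% of all genes were. At 10 to 30 CPM, 8, 9 and 10 of 10 were, against 63.2%, 63.9% and 65.6% of all genes. At 100 to 300 CPM, 5, 6 and 6 of 6 were, against 80.7%, 79.3% and 79.4%. At 300 CPM or more, 2, 3 and 4 of 4 members were called, where 82.3%, 85.9% and 82.1% of all genes were. The 3 comparisons share the 2 MEF libraries.

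By family, 7, 7 and 10 of 15 Mmp genes rose in CFAE+8, CFAE+6 and CFAE+8+MSC, and 3, 5 and 5 fell. Of 17 Adamts genes, 8, 12 and 12 rose and 6, 4 and 4 fell. Of 4 Adamtsl genes, 3, 3 and 4 fell, and the 3 tested Timp genes fell in each cocktail. Among all tested genes 30.8%, 31.6% and 31.9% rose and 31.3%, 31.5% and 32.2% fell. In either direction 66.7%, 80% and 100% of the Mmp genes were called, where 62.0%, 63.1% and 64.1% of all tested genes were.

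**Figure D3:**
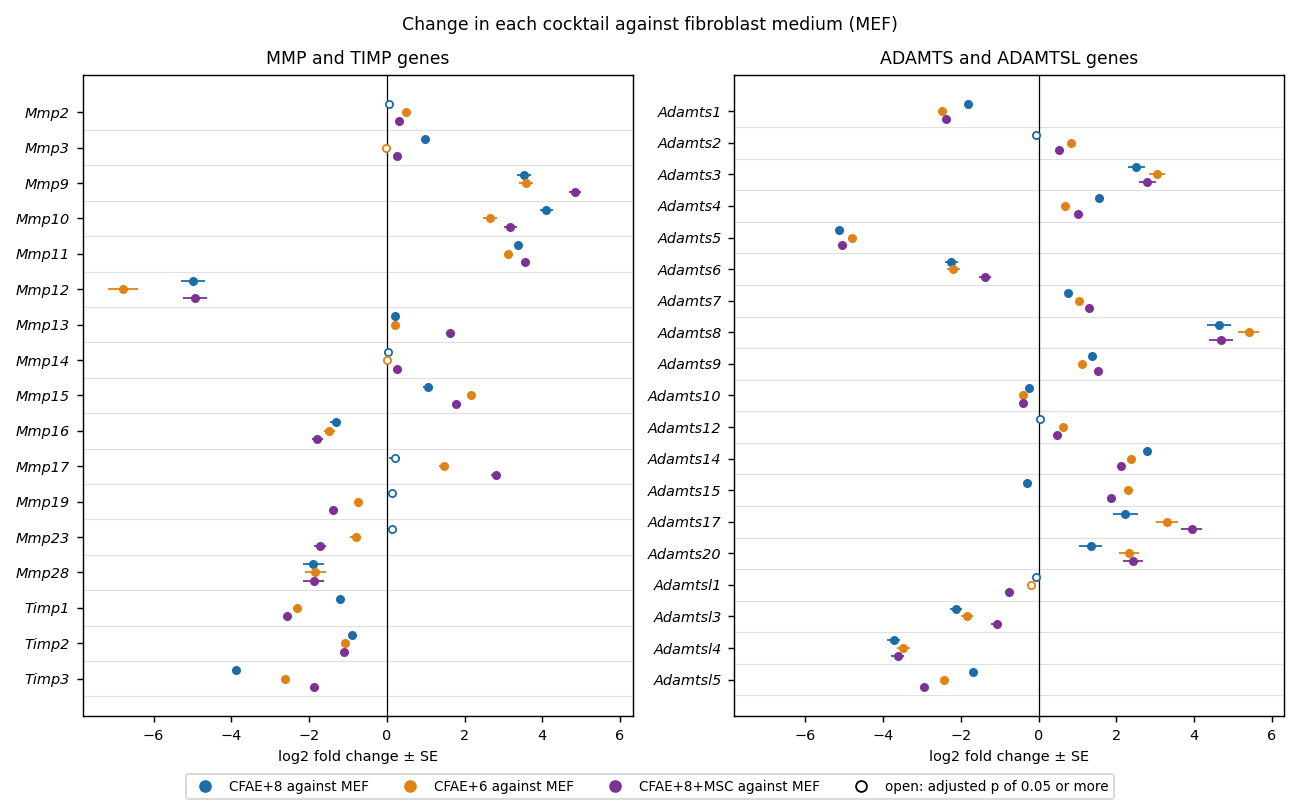
Log2 fold change ± SE of each member with at least 5 CPM in a group, in CFAE+8, CFAE+6 and CFAE+8+MSC, each against MEF; open points have an adjusted p of 0.05 or more. Mmp9, Mmp10, Mmp11, Adamts3, Adamts8, Adamts14 and Adamts17 lie above 2 in all 3 cocktails, and Mmp12, Adamts5 and Adamtsl4 lie below -3.

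Among the secreted proteinases outside a gene group on chromosome 9, Mmp11, Mmp9 and Mmp2 differed in how far they moved. Mmp11 is cleaved to its active form inside the cell. It had 700.1 and 683 CPM in CFAE+8, 571 and 583 in CFAE+6, 788 and 764 in CFAE+8+MSC, against 66.7 and 65.9 in MEF. All 6 cocktail libraries lay far above both MEF libraries, at log2 fold changes of 3.38 ± 0.05 in CFAE+8, 3.12 ± 0.05 in CFAE+6 and 3.55 ± 0.05 in CFAE+8+MSC (adjusted p = 1.0e-29, 6.5e-29 and 3.6e-30). Mmp11 shares 5.58% of its exon length with Chchd10 on the other strand. The library kit does not mark strand, and Chchd10 had 199, 512 and 691 counts in CFAE+8, CFAE+6 and CFAE+8+MSC, against 125 in MEF. The part of these reads in the counts of Mmp11 was not measured.

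Mmp9, gelatinase B, cleaves denatured collagen and basement membrane collagen. It had 29.96 and 27.5 CPM in CFAE+8, 29.1 and 29.8 in CFAE+6, 73.4 and 68.0 in CFAE+8+MSC, against 1.52 and 3.39 in MEF. The CFAE+8+MSC libraries were the highest and the MEF libraries the lowest, with no overlap, at log2 fold changes of 3.53 ± 0.18 in CFAE+8, 3.57 ± 0.18 in CFAE+6 and 4.83 ± 0.16 in CFAE+8+MSC (adjusted p = 1.6e-16, 1.1e-16 and 3.2e-21). The MEF libraries were unequal, and without MEF replicate 2 the log2 fold changes were 4.23 in CFAE+8, 4.27 in CFAE+6 and 5.53 in CFAE+8+MSC. Mmp2, gelatinase A, was abundant in every medium, with 634 and 632 CPM in CFAE+8, 831 and 859 in CFAE+6, 761 and 734 in CFAE+8+MSC, against 595 and 612 in MEF. Its rise was small, at 0.49 ± 0.04 in CFAE+6 and 0.31 ± 0.04 in CFAE+8+MSC (log2 fold change ± SE, adjusted p = 1.5e-11 and 1.4e-07). In CFAE+8 the log2 fold change was 0.07 ± 0.04, with a 95% interval of -0.02 to 0.15 and an adjusted p of 0.148. With upper-quartile scaling that difference was called (log2 fold change 0.11).

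Mmp19, a secreted proteinase of basement membrane proteins, fell in CFAE+6 and CFAE+8+MSC. It had 49.7 and 54.1 CPM in CFAE+8, 29.6 and 26.6 in CFAE+6, 21.05 and 15.1 in CFAE+8+MSC, against 44.6 and 49.6 in MEF. CFAE+8 lay just above MEF, and the log2 fold changes were 0.14 ± 0.10 in CFAE+8, -0.75 ± 0.11 in CFAE+6 and -1.38 ± 0.12 in CFAE+8+MSC (adjusted p = 0.236, 7.2e-07 and 1.7e-11). Of its exon length, 28.3% is shared with Tmem198b and Gm47093 on the other strand, so its level is uncertain. Tmem198b had 691, 566 and 578 counts in CFAE+8, CFAE+6 and CFAE+8+MSC, against 758 in MEF. Mmp28 (epilysin) had 2.99 and 2.04 CPM in CFAE+8, 2.64 and 2.57 in CFAE+6, 3.38 and 1.63 in CFAE+8+MSC, against 9.31 and 9.34 in MEF. It fell in all 3 cocktails, by 1.89, 1.84 and 1.89 on the log2 scale in CFAE+8, CFAE+6 and CFAE+8+MSC (adjusted p = 6.5e-07, 9.8e-07 and 7.2e-07). Without CFAE+8+MSC replicate 1 the log2 fold change in CFAE+8+MSC was -2.51. Mmp28 shares 12.03% of its exon length with 1700020L24Rik, which had 10 to 23 counts per group.

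A group of 9 Mmp genes among the members lies on chromosome 9, within chr9:7272514-7699585 of mm10. Of this group 5 genes were tested: Mmp13, Mmp12, Mmp3, Mmp10 and Mmp27. It holds collagenases, stromelysins and the macrophage elastase, and several of its promoters carry the binding motif of AP-1, the Fos and Jun transcription factors. These windows, from RefSeq on GRCm38.p6, run 250 bases before to 50 bases after an annotated start and are shown because these 4 neighbours, each with an AP-1 motif close to its start, moved differently. Capitals mark the motif TGANTCA.
Mmp13 (chr9:7272264-7272563, + strand): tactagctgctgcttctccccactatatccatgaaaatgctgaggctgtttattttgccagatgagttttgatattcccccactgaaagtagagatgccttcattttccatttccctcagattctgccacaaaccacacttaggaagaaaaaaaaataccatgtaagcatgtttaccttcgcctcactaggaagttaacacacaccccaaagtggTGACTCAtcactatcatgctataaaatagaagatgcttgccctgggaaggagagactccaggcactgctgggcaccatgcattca
Mmp12 (chr9:7347124-7347423, + strand): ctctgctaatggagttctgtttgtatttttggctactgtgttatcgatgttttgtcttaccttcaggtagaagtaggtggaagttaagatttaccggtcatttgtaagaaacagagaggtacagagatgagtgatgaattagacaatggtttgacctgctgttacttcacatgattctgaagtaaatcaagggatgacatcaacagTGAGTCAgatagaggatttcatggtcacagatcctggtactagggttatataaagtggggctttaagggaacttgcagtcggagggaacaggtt
Mmp3 (chr9:7445572-7445871, + strand): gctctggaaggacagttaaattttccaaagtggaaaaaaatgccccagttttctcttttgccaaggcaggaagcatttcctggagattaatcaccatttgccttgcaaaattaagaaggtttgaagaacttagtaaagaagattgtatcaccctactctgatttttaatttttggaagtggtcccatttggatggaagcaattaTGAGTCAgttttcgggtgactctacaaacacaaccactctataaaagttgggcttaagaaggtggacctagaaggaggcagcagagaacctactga
Mmp10 (chr9:7502092-7502391, + strand): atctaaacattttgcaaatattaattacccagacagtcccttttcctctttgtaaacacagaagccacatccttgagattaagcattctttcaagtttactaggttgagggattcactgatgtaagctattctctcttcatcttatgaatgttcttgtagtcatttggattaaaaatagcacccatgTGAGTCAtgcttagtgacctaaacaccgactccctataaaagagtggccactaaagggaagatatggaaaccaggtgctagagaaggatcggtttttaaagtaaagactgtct
The motif starts 35, 44, 46 and 63 bases before the start in Mmp13, Mmp12, Mmp3 and Mmp10. The Mmp12 window belongs to a second RefSeq start, 2993 bases inside the gene as the deposited table gives it, and the window at its first start holds no such motif. Windows were found for 35 of the 50 members. The motif, read on both strands, was in 4 of the 26 windows of tested members (15.4%) and in 7.81% of all 32851 windows. In the windows of members not tested it was found in Mmp1b, Mmp7 and Mmp20, which lie in the same chromosome 9 group. It was in neither the window of Mmp27, the other tested gene of this group, nor that of Mmp8. The full palindrome bound by CREB was in 1.79% of all windows and the TCF/LEF motif CTTTGAT in 3.73%, and neither was in a window of a tested member. The direct repeat bound by the retinoic acid receptor was in 0.00913% of all windows and in no member window. A match describes these letters only.

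Mmp10 (stromelysin-2) rose in each cocktail, with 49.8 and 48.5 CPM in CFAE+8, 17.5 and 18.5 in CFAE+6, 28.8 and 22.7 in CFAE+8+MSC, against 2.66 and 3.02 in MEF. CFAE+8 was highest and MEF lowest, and no 2 groups overlapped. The log2 fold changes were 4.11 ± 0.16 in CFAE+8, 2.65 ± 0.18 in CFAE+6 and 3.18 ± 0.17 in CFAE+8+MSC (adjusted p = 1.6e-19, 1.8e-13 and 7.1e-16). Mmp3 (stromelysin-1), which cleaves proteoglycans and fibronectin and can activate other Mmp precursors, had 60.9 and 60.4 CPM in CFAE+8, 29.97 and 30.5 in CFAE+6, 40.2 and 32.5 in CFAE+8+MSC, against 29.9 and 31.2 in MEF. It rose in CFAE+8, by 0.99 ± 0.09 (log2 fold change ± SE, adjusted p = 2.0e-10). In CFAE+6 the log2 fold change was -0.02 ± 0.10, with a 95% interval of -0.23 to 0.19. In CFAE+8+MSC it was called higher at 0.25 ± 0.10 (log2 fold change ± SE, adjusted p = 0.0297), and this call was lost without CFAE+8+MSC replicate 1 (0.09), without MEF replicate 1 (0.22) or without MEF replicate 2 (0.28) and with DESeq2.

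Mmp13 (collagenase-3), the main interstitial collagenase of the mouse, had 61.9 and 68.3 CPM in CFAE+8, 65.5 and 64.4 in CFAE+6, 169.8 and 177 in CFAE+8+MSC, against 53.9 and 58.8 in MEF. Both CFAE+8+MSC libraries lay far above the other 6, at a log2 fold change of 1.62 ± 0.07 (adjusted p = 9.4e-19). In CFAE+8 and CFAE+6 it was called higher by 0.21 ± 0.07 and 0.20 ± 0.07 (log2 fold change ± SE, adjusted p = 0.0147 and 0.0163). The CFAE+8 call was lost without CFAE+8 replicate 2 (0.13) or without MEF replicate 1 (0.15). The CFAE+6 call was lost without CFAE+6 replicate 1 (0.19) or without MEF replicate 1 (0.14). DESeq2 made neither call.

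Mmp12, the macrophage metalloelastase, had 0.683 and 0.594 CPM in CFAE+8, 0.0881 and 0.257 in CFAE+6, 0.346 and 0.995 in CFAE+8+MSC, against 22.7 and 18.3 in MEF. Mmp12 shares 2.17% of its exon length with Mmp1b, which had at most 11 counts per group. The cocktail values rest on 15, 4 and 15 counts over the 2 libraries of CFAE+8, CFAE+6 and CFAE+8+MSC, against 439 in MEF. All 6 cocktail libraries lay far below both MEF libraries, and the fitted log2 fold changes were -4.98 ± 0.31 in CFAE+8, -6.80 ± 0.39 in CFAE+6 and -4.93 ± 0.31 in CFAE+8+MSC (adjusted p = 1.2e-14, 1.6e-15 and 1.5e-14). At such counts the folds are loose: without CFAE+6 replicate 2 the log2 fold change in CFAE+6 was -7.69, and without CFAE+8+MSC replicate 2 that in CFAE+8+MSC was -5.83. Macrophage markers moved with it. Of 15 markers, 14 were tested, and 13, 14 and 13 of them fell in CFAE+8, CFAE+6 and CFAE+8+MSC. Among all tested genes 31.3%, 31.5% and 32.2% fell. The summed level of the macrophage markers was 45.1 to 45.4 CPM in CFAE+8, 25.7 to 27.4 in CFAE+6, 24.9 to 27.0 in CFAE+8+MSC, against 207 to 209 in MEF. Itgam was at 0 in CFAE+8+MSC. In such bulk libraries fewer cells of a type and less RNA per cell cannot be told apart, and the part of macrophages in the fall of Mmp12 was not tested. Mmp8 (neutrophil collagenase), with 1 to 9 counts in 7 libraries and 0 in CFAE+8+MSC replicate 2, was too low to test. Mmp27, at most 23 counts in a library, was called higher in CFAE+8 and CFAE+8+MSC against MEF (log2 fold change 1.92 ± 0.66 and 1.89 ± 0.67, adjusted p = 0.0120 and 0.0138). Its counts over the 2 libraries were 34 in CFAE+8, 13 in CFAE+6 and 32 in CFAE+8+MSC, against 8 in MEF. The CFAE+8 call was lost without CFAE+8 replicate 1 (log2 fold change 1.30) or MEF replicate 2 (1.33), and the log2 fold change was 2.91 without MEF replicate 1. The CFAE+8+MSC call was lost without CFAE+8+MSC replicate 1 (log2 fold change 1.25), without MEF replicate 2 (1.29) and with DESeq2, and the log2 fold change was 2.87 without MEF replicate 1.

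**Figure D4:**
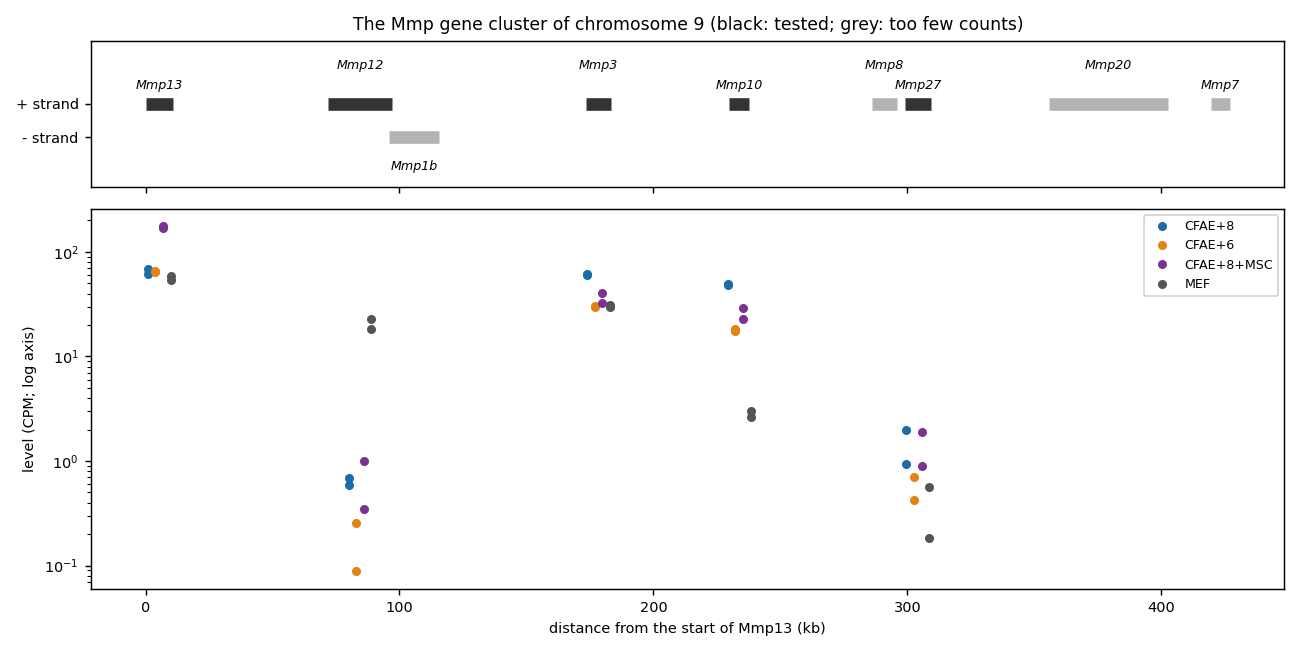
Top, the 9 Mmp genes of the chromosome 9 group on either strand, by distance from the start of Mmp13 in kb, in black where tested and grey where counts were too few. Bottom, the level of the 5 tested genes in each library (CPM, log axis, 1 point per library). Mmp10 and Mmp3 are highest in CFAE+8, Mmp13 in CFAE+8+MSC and Mmp12 in MEF.

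Of the membrane-bound Mmp genes, Mmp15 rose and Mmp16 fell in all 3 cocktails, Mmp17 rose in CFAE+6 and CFAE+8+MSC, and Mmp14 rose slightly in CFAE+8+MSC. Mmp14 had 1133 and 1103 CPM in CFAE+8, 1106 and 1099.7 in CFAE+6, 1343 and 1319.7 in CFAE+8+MSC, against 1057 and 1145 in MEF. The groups CFAE+8 and CFAE+6 overlapped MEF, with log2 fold changes of 0.02 ± 0.04 (95% interval -0.06 to 0.10) and 0.00 ± 0.04 (-0.08 to 0.08). CFAE+8+MSC lay above all other libraries, at 0.27 ± 0.04 (log2 fold change ± SE, adjusted p = 6.4e-07). Mmp15 (MT2-MMP) had 18.7 and 20.0 CPM in CFAE+8, 41.3 and 42.6 in CFAE+6, 32.0 and 32.4 in CFAE+8+MSC, against 9.31 and 9.34 in MEF. Each cocktail lay above MEF, with log2 fold changes of 1.05 ± 0.13 in CFAE+8, 2.17 ± 0.12 in CFAE+6 and 1.79 ± 0.12 in CFAE+8+MSC (adjusted p = 3.3e-08, 4.9e-16 and 1.0e-13). Mmp17 (MT4-MMP), which is held by a lipid anchor, had 14.3 and 10.9 CPM in CFAE+8, 30.1 and 30.04 in CFAE+6, 72.6 and 78.5 in CFAE+8+MSC, against 10.7 and 10.99 in MEF. CFAE+8 overlapped MEF (0.21 ± 0.14, adjusted p = 0.211), while CFAE+6 rose by 1.47 ± 0.12 and CFAE+8+MSC by 2.80 ± 0.11 (log2 fold change ± SE, adjusted p = 1.9e-11 and 4.7e-19). The CFAE+8 difference was called without CFAE+8 replicate 2 (0.39).

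Mmp16 (MT3-MMP) had 10.7 and 11.5 CPM in CFAE+8, 10.6 and 9.33 in CFAE+6, 7.79 and 8.23 in CFAE+8+MSC, against 25.9 and 29.5 in MEF. It fell in all 3 cocktails, at -1.32 ± 0.14 in CFAE+8, -1.48 ± 0.14 in CFAE+6 and -1.79 ± 0.15 in CFAE+8+MSC (log2 fold change ± SE, adjusted p = 1.6e-09, 2.4e-10 and 8.3e-12). Mmp23, an unusual membrane proteinase without the common cysteine switch, had 31.1 and 29.2 CPM in CFAE+8, 13.4 and 18.2 in CFAE+6, 6.93 and 9.86 in CFAE+8+MSC, against 28.2 and 27.1 in MEF. CFAE+8 lay just above MEF (0.12 ± 0.13, adjusted p = 0.416), and CFAE+6 and CFAE+8+MSC fell by 0.80 and 1.72 on the log2 scale (adjusted p = 1.0e-05 and 6.2e-11).

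The inhibitors fell in every cocktail, but by unequal amounts. Timp1 (chrX:20870166-20874735), a secreted inhibitor of most Mmp proteins, had 151 and 147 CPM in CFAE+8, 68.9 and 70.2 in CFAE+6, 58.2 and 56.8 in CFAE+8+MSC, against 349.5 and 336 in MEF. Every cocktail library lay below both MEF libraries and CFAE+8 above the other 2 cocktails. The log2 fold changes were -1.20 ± 0.05 in CFAE+8, -2.30 ± 0.06 in CFAE+6 and -2.57 ± 0.06 in CFAE+8+MSC (adjusted p = 3.6e-18, 2.6e-24 and 2.9e-25). Timp2 (chr11:118301069-118355740), which also takes part in the activation of Mmp2 by Mmp14, had 1329 and 1332 CPM in CFAE+8, 1175 and 1159.5 in CFAE+6, 1187 and 1117 in CFAE+8+MSC, against 2435 and 2503 in MEF. It fell in each cocktail, with the smallest log2 fold changes of the 3 inhibitors, -0.89 ± 0.04 in CFAE+8, -1.08 ± 0.04 in CFAE+6 and -1.10 ± 0.04 in CFAE+8+MSC (adjusted p = 8.7e-19, 7.8e-21 and 5.4e-21).

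Timp3 (chr10:86300372-86349506) binds to the matrix and inhibits Adamts enzymes and Adam17 as well as Mmp proteins. It had 44.7 and 41.9 CPM in CFAE+8, 113 and 97.2 in CFAE+6, 176 and 176 in CFAE+8+MSC, against 624 and 656 in MEF. CFAE+8 was the lowest, followed by CFAE+6 and CFAE+8+MSC, with no overlap between any 2 groups. The log2 fold changes were -3.88 ± 0.07 in CFAE+8, -2.61 ± 0.06 in CFAE+6 and -1.86 ± 0.06 in CFAE+8+MSC (adjusted p = 2.1e-28, 3.2e-25 and 4.0e-22), which is 14.8-fold lower, 6.10-fold lower and 3.64-fold lower than MEF. Timp3 shares 21.3% of its exon length with Syn3 on the other strand, which had 11 to 15 counts per group. Timp4 had 0 to 4 counts per library and was not tested.

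The Adamts genes that cleave large proteoglycans such as aggrecan and versican split in direction. Adamts1 and Adamts5, neighbours 53059 bases apart on chromosome 16, fell. Adamts5 (chr16:85856173-85901828), the main aggrecanase of mouse cartilage, had 8.96 and 6.45 CPM in CFAE+8, 11.3 and 8.05 in CFAE+6, 9.01 and 7.05 in CFAE+8+MSC, against 259 and 280.3 in MEF. It was 35.0-fold lower in CFAE+8, 27.9-fold lower in CFAE+6 and 33.5-fold lower in CFAE+8+MSC, each against MEF, at log2 fold changes of -5.13 ± 0.11 in CFAE+8, -4.80 ± 0.11 in CFAE+6 and -5.07 ± 0.11 in CFAE+8+MSC (adjusted p = 5.5e-26, 1.3e-25 and 8.1e-26). Adamts1, which cleaves versican and aggrecan, had 112 and 105 CPM in CFAE+8, 71.5 and 65.1 in CFAE+6, 73.1 and 72.8 in CFAE+8+MSC, against 379 and 389 in MEF. It fell, with log2 fold changes of -1.83 ± 0.06 in CFAE+8, -2.49 ± 0.06 in CFAE+6 and -2.40 ± 0.06 in CFAE+8+MSC (adjusted p = 6.7e-22, 1.2e-24 and 2.6e-24). Cartilage and bone markers moved in the same comparisons: 6 of 9 tested fell and 3 rose in each cocktail, and their sum was 461 to 488 CPM in CFAE+8, 498 to 507 in CFAE+6, 344 to 355 in CFAE+8+MSC, against 1290.1 to 1301 in MEF. Among all tested genes 31.3%, 31.5% and 32.2% fell and 30.8%, 31.6% and 31.9% rose in these cocktails. The part of these markers in the level of Adamts5 was not tested.

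Adamts4, Adamts8, Adamts9 and Adamts20 rose. Adamts8 had 11.2 and 14.9 CPM in CFAE+8, 21.9 and 22.3 in CFAE+6, 12.5 and 14.5 in CFAE+8+MSC, against 0.665 and 0.366 in MEF. The MEF value rests on 11 counts over its 2 libraries, and all 6 cocktail libraries lay far above it, at 4.64 ± 0.30 in CFAE+8, 5.40 ± 0.28 in CFAE+6 and 4.68 ± 0.30 in CFAE+8+MSC (log2 fold change ± SE, adjusted p = 4.5e-14, 1.5e-16 and 3.2e-14). Adamts8 shares 10.6% of its exon length with Gm29724, which had 7 counts or fewer per group. Adamts4, an aggrecanase, had 103 and 103 CPM in CFAE+8, 54.7 and 56.2 in CFAE+6, 73.2 and 66.7 in CFAE+8+MSC, against 33.4 and 36.3 in MEF. It rose, with log2 fold changes of 1.56 ± 0.08 in CFAE+8, 0.67 ± 0.08 in CFAE+6 and 1.01 ± 0.08 in CFAE+8+MSC (adjusted p = 5.2e-17, 2.6e-08 and 3.6e-12). Adamts9, a versican-cleaving enzyme, had 141 and 138 CPM in CFAE+8, 118 and 117 in CFAE+6, 156 and 153 in CFAE+8+MSC, against 49.4 and 58.3 in MEF. It rose, with log2 fold changes of 1.37 ± 0.07 in CFAE+8, 1.12 ± 0.07 in CFAE+6 and 1.52 ± 0.07 in CFAE+8+MSC (adjusted p = 7.9e-17, 1.2e-14 and 5.9e-18). It shares 11.99% of its exon length with A730049H05Rik and Gm15737, which had at most 86 counts per group. Adamts20, its closest relative, was low, with 4.95 and 3.56 CPM in CFAE+8, 8.37 and 8.47 in CFAE+6, 9.09 and 8.95 in CFAE+8+MSC, against 1.71 and 1.65 in MEF. It rose, with log2 fold changes of 1.34 ± 0.29 in CFAE+8, 2.32 ± 0.26 in CFAE+6 and 2.42 ± 0.26 in CFAE+8+MSC (adjusted p = 2.0e-04, 6.4e-09 and 2.4e-09).

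Adamts15, also a proteoglycan-cleaving enzyme, lies 20109 bases from Adamts8 on chromosome 9. It had 13.7 and 12.4 CPM in CFAE+8, 75.0 and 81.8 in CFAE+6, 59.5 and 56.8 in CFAE+8+MSC, against 14.9 and 17.0 in MEF. CFAE+6 and CFAE+8+MSC lay far above MEF, at 2.29 ± 0.10 and 1.86 ± 0.10 (log2 fold change ± SE, adjusted p = 1.4e-18 and 4.9e-16). In CFAE+8 it was called lower by a small margin, at -0.29 ± 0.12 (log2 fold change ± SE, adjusted p = 0.0426). This last call was lost without CFAE+8 replicate 2 (-0.22) or without MEF replicate 2 (-0.19), and with upper-quartile scaling, DESeq2, no filter or only the 2 groups in the fit.

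The procollagen N-proteinases Adamts2, Adamts3 and Adamts14, which trim the amino end of fibrillar procollagens, rose unequally. Adamts14 had 193 and 201 CPM in CFAE+8, 142 and 151 in CFAE+6, 121 and 124 in CFAE+8+MSC, against 29.6 and 27.3 in MEF. Every cocktail library lay above MEF, with log2 fold changes of 2.79 ± 0.07 in CFAE+8, 2.36 ± 0.07 in CFAE+6 and 2.11 ± 0.07 in CFAE+8+MSC (adjusted p = 3.2e-24, 3.0e-22 and 7.7e-21). Adamts3, which also takes part in the activation of VEGF-C, had 11.3 and 12.1 CPM in CFAE+8, 16.3 and 17.8 in CFAE+6, 14.4 and 14.1 in CFAE+8+MSC, against 1.62 and 2.47 in MEF. It rose, with log2 fold changes of 2.51 ± 0.22 in CFAE+8, 3.05 ± 0.21 in CFAE+6 and 2.79 ± 0.22 in CFAE+8+MSC (adjusted p = 4.2e-11, 1.6e-13 and 2.2e-12). Adamts2 had 142 and 143 CPM in CFAE+8, 269 and 265 in CFAE+6, 219 and 211 in CFAE+8+MSC, against 145 and 155 in MEF. It rose in CFAE+6 and CFAE+8+MSC, at 0.83 ± 0.05 and 0.52 ± 0.05 (log2 fold change ± SE, adjusted p = 2.7e-14 and 1.2e-09), while CFAE+8 lay at -0.08 ± 0.05 with a 95% interval of -0.19 to 0.03. In the same libraries Col1a2, a fibrillar procollagen gene, was at 2020.4 ± 10.5, 1414 ± 21.1 and 1430.1 ± 18.9 CPM in CFAE+8, CFAE+6 and CFAE+8+MSC, against 7595 ± 99.9 CPM in MEF (mean ± SD, n = 2 each). It fell in each, with log2 fold changes of -1.91 ± 0.03, -2.43 ± 0.03 and -2.41 ± 0.03 (adjusted p = 1.9e-28, 1.0e-30 and 1.6e-30).

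Adamts7 and Adamts12, which cleave cartilage oligomeric matrix protein, rose in most comparisons. Adamts7 had 73.2 and 75.1 CPM in CFAE+8, 92.0 and 88.0 in CFAE+6, 109 and 107 in CFAE+8+MSC, against 42.7 and 45.5 in MEF. It rose, with log2 fold changes of 0.75 ± 0.07 in CFAE+8, 1.03 ± 0.07 in CFAE+6 and 1.29 ± 0.07 in CFAE+8+MSC (adjusted p = 2.4e-10, 1.5e-13 and 4.8e-16). Adamts7 shares 1.94% of its exon length with the abundant gene Tbc1d2b and its level is uncertain. Adamts12 had 61.9 and 62.8 CPM in CFAE+8, 97.6 and 91.4 in CFAE+6, 87.0 and 83.1 in CFAE+8+MSC, against 56.8 and 65.5 in MEF. It rose in CFAE+6 and CFAE+8+MSC at 0.63 ± 0.07 and 0.48 ± 0.07 (log2 fold change ± SE, adjusted p = 1.2e-08 and 1.8e-06), and in CFAE+8 the estimate was 0.03 ± 0.08 (95% interval -0.13 to 0.18).

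The remaining Adamts genes include Adamts6, Adamts10 and Adamts17, the last 2 tied to fibrillin microfibrils by human disease. Adamts17 had 4.44 and 5.26 CPM in CFAE+8, 11.9 and 8.56 in CFAE+6, 17.4 and 14.4 in CFAE+8+MSC, against 1.14 and 0.916 in MEF. It was lowest in MEF. It rose, with log2 fold changes of 2.23 ± 0.33 in CFAE+8, 3.30 ± 0.29 in CFAE+6 and 3.94 ± 0.27 in CFAE+8+MSC (adjusted p = 7.4e-07, 3.2e-11 and 1.5e-13). Adamts6 had 8.11 and 5.51 CPM in CFAE+8, 8.73 and 5.39 in CFAE+6, 12.9 and 11.8 in CFAE+8+MSC, against 31.6 and 33.1 in MEF. It fell, with log2 fold changes of -2.25 ± 0.17 in CFAE+8, -2.20 ± 0.17 in CFAE+6 and -1.39 ± 0.16 in CFAE+8+MSC (adjusted p = 1.9e-12, 2.8e-12 and 7.6e-09). Adamts10 had 71.2 and 68.8 CPM in CFAE+8, 61.0 and 64.4 in CFAE+6, 61.6 and 62.5 in CFAE+8+MSC, against 81.6 and 83.4 in MEF. It fell slightly, with log2 fold changes of -0.24 ± 0.07 in CFAE+8, -0.40 ± 0.07 in CFAE+6 and -0.41 ± 0.07 in CFAE+8+MSC (adjusted p = 0.00329, 1.1e-05 and 6.6e-06). Adamts16 and Adamts19 had at most 26 counts in a library. Adamts16 fell in CFAE+8 (log2 fold change -2.14 ± 0.61, adjusted p = 0.00281), and Adamts19 rose in CFAE+6 and CFAE+8+MSC (2.97 ± 0.64 and 2.71 ± 0.66, adjusted p = 1.5e-04 and 5.9e-04). The fall of Adamts16 was lost without CFAE+8 replicate 1 (log2 fold change -1.57) or MEF replicate 2 (-1.71), and its log2 fold change was -3.09 without CFAE+8 replicate 2. Without MEF replicate 1 the log2 fold changes of Adamts19 were 4.23 in CFAE+6 and 3.97 in CFAE+8+MSC, and without MEF replicate 2 they were 2.30 and 2.03.

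Adamtsl proteins bind the matrix without cutting it, and several are tied to fibrillin microfibrils. Adamtsl4 had 3.59 and 3.56 CPM in CFAE+8, 4.94 and 3.51 in CFAE+6, 3.64 and 3.98 in CFAE+8+MSC, against 43.1 and 51.4 in MEF. Every cocktail library lay far below both MEF libraries, and the log2 fold changes were -3.72 ± 0.17 in CFAE+8, -3.48 ± 0.16 in CFAE+6 and -3.63 ± 0.17 in CFAE+8+MSC (adjusted p = 6.4e-18, 1.6e-17 and 1.1e-17). Adamtsl5 had 41.8 and 42.0 CPM in CFAE+8, 23.4 and 26.4 in CFAE+6, 17.5 and 17.5 in CFAE+8+MSC, against 129 and 141 in MEF. It fell, with log2 fold changes of -1.68 ± 0.08 in CFAE+8, -2.43 ± 0.08 in CFAE+6 and -2.94 ± 0.09 in CFAE+8+MSC (adjusted p = 6.8e-18, 4.7e-21 and 1.9e-22). Adamtsl3 had 6.06 and 6.62 CPM in CFAE+8, 7.58 and 7.96 in CFAE+6, 13.8 and 12.5 in CFAE+8+MSC, against 29.5 and 26.3 in MEF. It fell, with log2 fold changes of -2.13 ± 0.15 in CFAE+8, -1.84 ± 0.15 in CFAE+6 and -1.08 ± 0.14 in CFAE+8+MSC (adjusted p = 3.3e-13, 4.6e-12 and 5.1e-08). Adamtsl1 had 32.4 and 33.2 CPM in CFAE+8, 32.1 and 27.5 in CFAE+6, 20.5 and 19.5 in CFAE+8+MSC, against 34.3 and 34.1 in MEF. It fell in CFAE+8+MSC (log2 fold change -0.77 ± 0.11, adjusted p = 3.0e-07), and the 95% intervals in CFAE+8 and CFAE+6 were -0.26 to 0.15 and -0.41 to 0.01. The CFAE+6 difference was called without CFAE+6 replicate 1 (-0.32).

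The comparison of CFAE+8+MSC with CFAE+8 asks what adding MSC2530818 did while A-83-01 was present. Mmp17, Adamts15, Timp3, Adamts17, Mmp13 and Mmp9 rose and Mmp23, Mmp19, Timp1 and Adamtsl5 fell; these are the 10 called members with the largest changes among those with at least 5 CPM in a group. In all, 18 of 39 tested members rose and 12 fell, where 15.6% and 13.8% of all tested genes did (29.3% together). The median log2 fold change was 0.15 over the members and -0.004 over all genes. Of the Mmp genes 7 rose and 5 fell, of the Timp genes 1 and 2, of the Adamts genes 9 and 3, and of the Adamtsl genes 1 and 2.

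Mmp17 was 6.01-fold higher with MSC2530818, with 72.6 and 78.5 CPM in CFAE+8+MSC, against 14.3 and 10.9 in CFAE+8 (log2 fold change 2.59 ± 0.11, adjusted p = 1.5e-17). Mmp13 and Mmp9 were higher by 1.41 ± 0.07 and 1.30 ± 0.10 (log2 fold change ± SE, adjusted p = 1.6e-16 and 2.6e-11), and no library of CFAE+8+MSC overlapped CFAE+8 for either. Adamts15 was higher by 2.15 ± 0.10 and Adamts17 by 1.71 ± 0.20 (log2 fold change ± SE, adjusted p = 2.6e-16 and 6.3e-08). Among the inhibitors, Timp3 rose by 2.02 ± 0.07 while Timp1 fell at -1.37 ± 0.06 and Timp2 at -0.21 ± 0.04 (log2 fold change ± SE, adjusted p = 6.7e-20, 4.5e-17 and 5.7e-05). Mmp14 and Mmp2 rose slightly, by 0.25 ± 0.04 and 0.24 ± 0.04 (log2 fold change ± SE, adjusted p = 1.0e-05 and 3.2e-05).

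The chromosome 9 neighbours moved in opposite directions with MSC2530818. Against the rise of Mmp13, Mmp10 fell at -0.93 ± 0.11 and Mmp3 at -0.74 ± 0.09 (adjusted p = 6.1e-08 and 1.8e-07), while Mmp12, with 15 counts in either group, had a log2 fold change with a 95% interval of -1.11 to 1.22. Mmp23 and Mmp19 fell, at -1.85 ± 0.15 and -1.52 ± 0.11 (log2 fold change ± SE, adjusted p = 6.3e-11 and 1.0e-11). Adamts1, Adamts4 and Adamts14 fell by less, at -0.57 ± 0.06, -0.56 ± 0.07 and -0.68 ± 0.06 (log2 fold change ± SE, adjusted p = 2.5e-08, 2.3e-07 and 1.1e-10). Adamtsl3 rose by 1.05 ± 0.16, while Adamtsl5 and Adamtsl1 fell, at -1.26 ± 0.10 and -0.71 ± 0.11 (log2 fold change ± SE, adjusted p = 9.9e-06, 1.6e-11 and 4.5e-06).

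Further rises with MSC2530818 were spread over the membrane-bound Mmp gene Mmp15 and several Adamts groups. Mmp15 rose by 0.73 ± 0.10 (log2 fold change ± SE, adjusted p = 2.4e-06). The procollagen N-proteinase gene Adamts2 rose by 0.60 ± 0.05, and Adamts7 and Adamts12 by 0.54 ± 0.06 and 0.45 ± 0.07 (log2 fold change ± SE, adjusted p = 3.6e-10, 9.4e-08 and 1.6e-05). Adamts6 and Adamts20 rose by 0.86 ± 0.19 and 1.08 ± 0.21 (log2 fold change ± SE, adjusted p = 9.2e-04 and 2.3e-04). The low-count genes Adamts16 and Adamts19, with 8 and 7 counts over the 2 CFAE+8 libraries, rose by 2.63 ± 0.57 and 2.38 ± 0.61 (log2 fold change ± SE, adjusted p = 5.7e-04 and 0.00309), and the log2 fold change of Adamts16 was 3.58 without CFAE+8 replicate 2.

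Some small differences in this comparison depended on single libraries. The fall of Mmp16 (log2 fold change -0.47 ± 0.16, adjusted p = 0.0287) was lost without CFAE+8 replicate 1 (-0.53), without CFAE+8 replicate 2 (-0.41), without CFAE+8+MSC replicate 1 (-0.43) or without CFAE+8+MSC replicate 2 (-0.50) and with DESeq2. The rise of Mmp11 (log2 fold change 0.17 ± 0.04, adjusted p = 0.00288) was lost without CFAE+8 replicate 2 (0.15). Adamts9 (log2 fold change 0.15 ± 0.06) was not called, but was without MEF replicate 1 (0.15) or without MEF replicate 2 (0.15) or with only these 2 groups in the fit. Adamts10 (log2 fold change -0.17 ± 0.07) was not called, but was without CFAE+6 replicate 1 (-0.17) or with upper-quartile scaling.

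**Figure D5:**
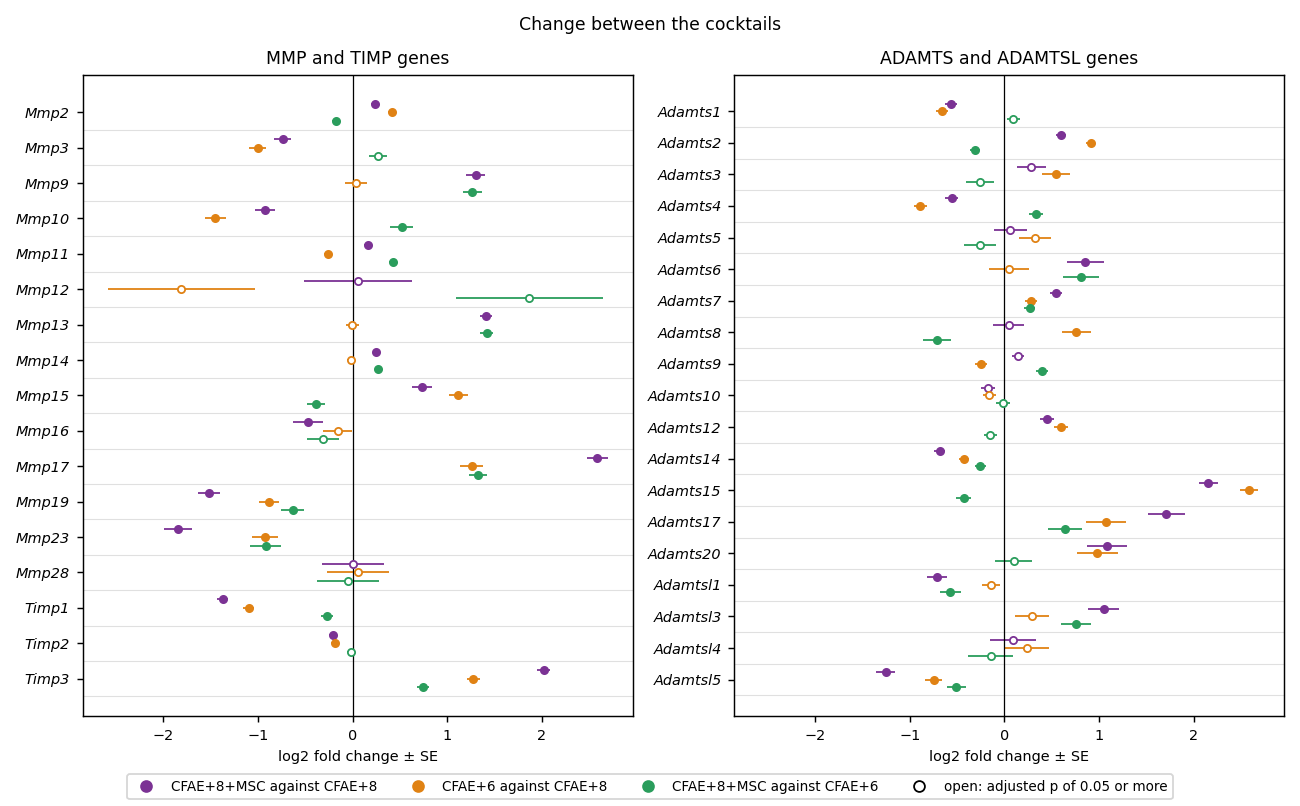
Log2 fold change ± SE of each member with at least 5 CPM in a group, in CFAE+8+MSC against CFAE+8, CFAE+6 against CFAE+8 and CFAE+8+MSC against CFAE+6; open points have an adjusted p of 0.05 or more. In CFAE+8+MSC against CFAE+8, Mmp17 lies at 2.59 and Mmp23 at -1.85, and in CFAE+6 against CFAE+8, Adamts15 lies at 2.59 and Mmp10 at -1.45.

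The comparison of CFAE+6 with CFAE+8 sets E-616452 against A-83-01, both inhibitors of the same receptor. Adamts15, Timp3, Mmp17, Mmp15, Adamts17 and Adamts20 were higher and Mmp10, Timp1, Mmp3 and Mmp23 lower in CFAE+6. Of 39 tested members 13 were higher and 12 lower, where 14.3% and 12.3% of all tested genes were (26.6% together), with a median log2 fold change of 0.04 over the members and 0.001 over all genes. This comparison shares the CFAE+8 libraries with the previous one.

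Among members with at least 5 CPM in a group Adamts15 differed most, with 75.0 and 81.8 CPM in CFAE+6, against 13.7 and 12.4 in CFAE+8, 6.00-fold higher in CFAE+6 (log2 fold change 2.59 ± 0.10, adjusted p = 4.5e-18). Mmp17 and Mmp15 were higher by 1.26 ± 0.12 and 1.12 ± 0.10 (adjusted p = 1.7e-09 and 7.7e-10), and Mmp2 by 0.42 ± 0.04 (log2 fold change ± SE, adjusted p = 3.0e-09). Mmp10 and Mmp3 were lower, at -1.45 ± 0.11 and -1.01 ± 0.09 (adjusted p = 2.9e-11 and 1.0e-09), and their neighbour Mmp13 had a log2 fold change with a 95% interval of -0.15 to 0.14. Timp3 was higher by 1.28 ± 0.07, Timp1 lower at -1.10 ± 0.06 and Timp2 lower at -0.19 ± 0.04 (log2 fold change ± SE, adjusted p = 1.1e-14, 6.3e-15 and 2.2e-04). The 95% intervals of the log2 fold changes of Mmp9 and Mmp14 were -0.19 to 0.27 and -0.10 to 0.06. Both groups overlapped for these 2 genes.

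Adamts17 and Adamts20 were higher by 1.07 ± 0.21 and 0.98 ± 0.22, Adamts2 by 0.91 ± 0.05 and Adamts8 by 0.76 ± 0.15 (log2 fold change ± SE, adjusted p = 2.2e-04, 8.5e-04, 4.5e-14 and 2.9e-04). Mmp23, Adamts4, Mmp19 and Adamtsl5 were lower, at -0.93 ± 0.14, -0.89 ± 0.07, -0.88 ± 0.11 and -0.75 ± 0.09 (log2 fold change ± SE, adjusted p = 4.6e-06, 5.1e-11, 1.6e-07 and 1.7e-07). Adamts12 and Adamts7 were higher by 0.60 ± 0.07 and 0.28 ± 0.07, and the low-count gene Adamts19 by 2.64 ± 0.59 (log2 fold change ± SE, adjusted p = 1.4e-07, 0.00165 and 9.3e-04). Adamts1, Adamts14, Adamts9 and Mmp11 were lower, at -0.66 ± 0.06, -0.43 ± 0.06, -0.25 ± 0.06 and -0.26 ± 0.04 (log2 fold change ± SE, adjusted p = 1.7e-09, 9.0e-07, 0.00297 and 1.8e-05).

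Adamts3 was called higher in CFAE+6 than in CFAE+8 (log2 fold change 0.54 ± 0.15, adjusted p = 0.00763). That call was lost without CFAE+8 replicate 1 (0.49) or without CFAE+6 replicate 2 (0.48) and with DESeq2. Adamts5 was not called (log2 fold change 0.32 ± 0.17) but was without CFAE+6 replicate 2 (0.55). Adamts16, with 25 counts over the CFAE+6 libraries and 8 over the CFAE+8 libraries, was not called but was without CFAE+8 replicate 2 (log2 fold change 2.59) and with no filter (1.64).

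Set directly against CFAE+6, CFAE+8+MSC cells had higher Mmp13, Mmp17 and Mmp9 and lower Mmp23 and Mmp19. Of 39 tested members 13 were higher and 11 lower, where 6.21% and 4.27% of all tested genes were (10.5% together), and the median log2 fold change was -0.02 over the members and -0.004 over all genes. Of the called members, 3 were more than 2-fold higher: Mmp13 (log2 fold change 1.42 ± 0.07), Mmp17 (1.33 ± 0.09) and Mmp9 (1.26 ± 0.10), with adjusted p = 1.4e-15, 2.6e-11 and 3.2e-10. When differences had to exceed 1.2-fold, 6 members were higher and 4 lower, where 1.23% and 0.575% of all tested genes were. The groups differ both in the TGF-beta receptor inhibitor and in MSC2530818.

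Mmp13 had 169.8 and 177 CPM in CFAE+8+MSC, against 65.5 and 64.4 in CFAE+6, and Mmp9 had 73.4 and 68.0 CPM in CFAE+8+MSC, against 29.1 and 29.8 in CFAE+6. Neither gene overlapped between the groups. Timp3 was higher by 0.74 ± 0.06 and Timp1 lower at -0.27 ± 0.06 (adjusted p = 4.0e-10 and 0.00439), while the 95% interval of the log2 fold change of Timp2 was -0.09 to 0.06. Adamtsl3 and Adamts6 were higher by 0.76 ± 0.16 and 0.81 ± 0.19 (log2 fold change ± SE, adjusted p = 0.00164 and 0.00493). Mmp23, Adamts8, Mmp19 and Adamts15 were lower, at -0.92 ± 0.17, -0.72 ± 0.15, -0.63 ± 0.12 and -0.43 ± 0.08 (log2 fold change ± SE, adjusted p = 2.8e-04, 0.00169, 7.0e-04 and 3.9e-04). Mmp14, Mmp11 and Adamts9 were higher by 0.27 ± 0.04, 0.43 ± 0.04 and 0.39 ± 0.06 (log2 fold change ± SE, adjusted p = 1.6e-05, 1.6e-08 and 4.4e-05). Adamts2, Adamtsl1 and Adamtsl5 were lower, at -0.31 ± 0.05, -0.57 ± 0.11 and -0.51 ± 0.10 (log2 fold change ± SE, adjusted p = 7.9e-05, 4.7e-04 and 0.00128).

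Single libraries decided several calls of CFAE+8+MSC against CFAE+6, given here as log2 fold changes ± SE with all libraries and then without the library named. DESeq2 also did not call Mmp15 or Adamts17. The difference in Mmp2 (-0.18 ± 0.04) was not called without CFAE+8+MSC replicate 2 (-0.15), nor that in Mmp10 (0.52 ± 0.12) without CFAE+8+MSC replicate 1 (0.34). For Mmp15 (-0.38 ± 0.10) the call was lost without CFAE+6 replicate 2 (-0.36) or without CFAE+8+MSC replicate 1 (-0.37). For Adamts17 (0.64 ± 0.18) it was lost without CFAE+6 replicate 2 (0.42) or without CFAE+8+MSC replicate 1 (0.49). For Adamts6 (0.81 ± 0.19) it was lost without CFAE+6 replicate 2 (0.50). Adamts7 (0.27 ± 0.06) lost its call without CFAE+6 replicate 2 (0.23) or without CFAE+8+MSC replicate 1 (0.25). Adamts4 (0.33 ± 0.07) lost it without CFAE+8+MSC replicate 1 (0.26), and Adamts14 (-0.26 ± 0.06) without CFAE+6 replicate 2 (-0.21). Mmp3, not called at 0.27 ± 0.10, was called without CFAE+8+MSC replicate 2 (0.41).

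Genes that act with these families were followed as 5 lists, described by counts and medians only. Matrix proteins that the proteinases cleave fell: 20 of 21 tested were lower in each cocktail than in MEF, with median log2 fold changes of -2.16, -1.67 and -1.69 in CFAE+8, CFAE+6 and CFAE+8+MSC. Among all tested genes 31.3%, 31.5% and 32.2% were lower. The basement membrane collagen gene Col4a1 and Thbs1 (thrombospondin-1) were higher in CFAE+8+MSC and CFAE+6 than in CFAE+8. Thbs1 was higher by 1.93 ± 0.04 in CFAE+8+MSC and 1.30 ± 0.04 in CFAE+6, and Col4a1 by 1.95 ± 0.05 and 1.65 ± 0.05, each against CFAE+8 (log2 fold change ± SE, adjusted p = 4.0e-26, 1.5e-21, 2.1e-23 and 2.4e-21). Against CFAE+8, 12 of the 21 were higher and 5 lower in CFAE+8+MSC, and 8 were higher and 6 lower in CFAE+6. The shares of all tested genes were 15.6% higher and 13.8% lower in CFAE+8+MSC, and 14.3% and 12.3% in CFAE+6.

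Of 12 other protease inhibitors, 8, 6 and 8 fell and 4, 4 and 4 rose against MEF, at median log2 fold changes of -1.29, -1.02 and -1.15. Among all tested genes 31.3%, 31.5% and 32.2% fell and 30.8%, 31.6% and 31.9% rose. Serpine2 was among the 4 that rose in CFAE+6, by 1.01 ± 0.04 against MEF (log2 fold change ± SE, adjusted p = 3.7e-19).

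Of 14 genes that activate, bind or clear these proteases, 9, 8 and 6 fell and 3, 4 and 6 rose against MEF. In these comparisons 31.3%, 31.5% and 32.2% of all tested genes fell and 30.8%, 31.6% and 31.9% rose. Lrp1, the endocytic receptor that clears Mmp and Adamts proteins, fell in CFAE+6 and CFAE+8+MSC by 1.44 ± 0.04 and 1.23 ± 0.04 on the log2 scale (adjusted p = 1.2e-23 and 5.2e-22). The urokinase gene Plau, a plasminogen activator, was higher in CFAE+8+MSC, at 84.6 ± 0.288 CPM, than in CFAE+8, at 29.9 ± 0.196 CPM (mean ± SD, n = 2 each, edgeR adjusted p = 8.4e-15). Pcsk6, a proprotein convertase, was higher in CFAE+8+MSC than in CFAE+8 by 2.30 ± 0.13 (log2 fold change ± SE, adjusted p = 2.8e-14). Of 12 tested Adam and astacin genes, 9, 8 and 8 fell and 1, 1 and 3 rose against MEF. Adam9 fell, with log2 fold changes of -1.72 ± 0.05, -2.02 ± 0.05 and -1.77 ± 0.05 in CFAE+8, CFAE+6 and CFAE+8+MSC (adjusted p = 1.6e-22, 4.9e-24 and 9.6e-23). Tll1, a procollagen C-proteinase, fell, with log2 fold changes of -4.28 ± 0.13, -3.11 ± 0.11 and -2.77 ± 0.11 (adjusted p = 1.7e-22, 1.5e-20 and 1.2e-19). Adam12 and Adam19 were higher in CFAE+8+MSC than in CFAE+8, by 1.56 ± 0.07 and 1.05 ± 0.05 (log2 fold change ± SE, adjusted p = 6.6e-17 and 9.5e-16).

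Of 15 transcription factor genes of the AP-1, Ets and Runx families and Cebpb, several of them known to act on Mmp promoters, 9, 7 and 8 rose and 5, 7 and 6 fell against MEF. In these comparisons 30.8%, 31.6% and 31.9% of all tested genes rose and 31.3%, 31.5% and 32.2% fell. Etv5 and Etv4 rose, by 2.76 ± 0.06 and 2.78 ± 0.08 in CFAE+8, while Ets1 fell at -1.93 ± 0.09 (log2 fold change ± SE, adjusted p = 4.1e-26, 4.3e-23 and 7.7e-18). Against CFAE+8, Junb and Fos fell at -0.69 ± 0.06 and -1.02 ± 0.12 in CFAE+8+MSC and at -0.71 ± 0.06 and -0.96 ± 0.12 in CFAE+6 (log2 fold change ± SE, adjusted p = 5.6e-11, 1.4e-07, 5.1e-11 and 4.1e-07). Runx1 was higher in CFAE+8+MSC than in CFAE+6, by 0.62 ± 0.06 (log2 fold change ± SE, adjusted p = 1.4e-08). Whether these factors act on any Mmp gene here was not tested.

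The 11 members with too few counts to test were Mmp1b, Mmp7, Mmp8, Mmp20, Mmp21, Mmp24, Mmp25, Timp4, Adamts13, Adamts18 and Adamtsl2. Mmp20 (enamelysin) had no count in any library, which allows up to 0.254 to 0.285 CPM per library. In a single library the highest count of the others was that of Adamtsl2, with 13 in MEF replicate 2 and 3 in MEF replicate 1. Mmp25 had 19 counts over the CFAE+8 libraries, against 11 in MEF. Adamts13, which cleaves von Willebrand factor, had 1 count in each CFAE+8+MSC library and 0 in the other 6 libraries.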

How the data were processed

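Per the labels' protocols, RNA came from the EasyPure RNA Kit and libraries from the NEBNext Ultra RNA kit. The deposited table holds raw read counts per gene for 8 libraries. The submitters' processing notes name Subread featureCounts, DESeq2 and the mm10 build but give no version. The sources used here name no aligner, strand setting or annotation release. Each library's group follows its title and its treatment label, and columns were matched by title.

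Of 54532 genes, 28024 had any count, and 15470, holding 99.85% of all counts, passed the edgeR filterByExpr function. All 8 libraries entered 1 edgeR 4.0.16 quasi-likelihood fit (R 4.3.3, limma 3.58.1) with TMM factors and 1 mean per group, which left 4 residual degrees of freedom and a common biological coefficient of variation of 0.0445. The fit draws each gene's spread towards that of other genes, so p-values rest on more than a gene's own replicates. P-values were Benjamini-Hochberg adjusted over all genes tested and called under 0.05. A standard error is the coefficient divided by the root of its F statistic, and 95% intervals come from the matching t distribution. Levels per kilobase divide CPM by the gene length in the deposited table.

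Values in every library are given for members whose mean reached 5 CPM in a group. In each comparison the up to 10 called members with the largest log2 fold change, every tested Timp gene, Mmp2 and Mmp14 are named, and up to 3 genes of each related list by adjusted p. Other members called, and those whose call changes with a library or setting, were added after their values were seen. The members, marker lists and related lists were chosen with earlier results of these data known. Genes were followed by identifier, since 102 symbols occur more than once. All 50 members were found in GENCODE M21, which gave the exon overlaps between genes, and promoter windows are from RefSeq on GRCm38.p6.

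Replicate libraries differed by more than sampling noise (chi-square per degree of freedom 1.87 to 2.67), so none were merged. The code was tested on simulated counts. Alternatives were DESeq2 size factors, upper-quartile factors, the DESeq2 1.42.0 test, no filter, at least 1 CPM in 2 libraries, a fit of only the 2 groups compared, a replicate block, each library left out, and a test against a 1.2-fold change.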

Additional observations from a re-analysis of the deposited data

How the results depend on the processing

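No called result changed direction under the alternatives run. Of 234 results for single genes (39 genes in 6 comparisons), the call was the same in 234 with DESeq2 size factors, 234 with a filter of at least 1 CPM in 2 libraries, 232 with no filter, 232 with only the 2 groups compared and 231 with upper-quartile factors. With the DESeq2 test 222 were the same, 9 calls were lost and the others had no adjusted p. Against a 1.2-fold change 31 calls were lost. The counts of CFAE+8+MSC against CFAE+6 then moved to 6 members higher and 4 lower, where 13 and 11 were called without that limit, and those over all genes to 190 and 89, where 961 and 660 were. With each library left out in turn, 1831 calls were the same, 33 were lost and 8 gained. These totals include comparisons in which neither group had lost a library. A group that lost a library held 1, so the members called in these fits are not counted here. Deviations from the group means of same-numbered libraries correlated at -0.04 to 0.08 over 11304 genes, so the replicate numbers were not used as pairs. With 1 difference per group, these correlations cannot exclude a weak effect shared by same-numbered libraries. With the replicate block all 234 calls were the same. Members higher and lower in CFAE+8 against MEF were 15 and 15, where 4746 and 4837 of all 15470 tested genes were. In CFAE+6 against MEF they were 19 and 15, where 4902 and 4863 of all were. In CFAE+8+MSC against MEF they were 22 and 16, where 4925 and 4981 of all were. In CFAE+8+MSC against CFAE+8 they were 18 and 12, where 2405 and 2126 of all were. In CFAE+6 against CFAE+8 they were 13 and 12, where 2221 and 1903 of all were. In CFAE+8+MSC against CFAE+6 they were 13 and 11, where 984 and 695 of all were. Depth limits the 11 members that were not tested and the folds of Mmp12, Adamts8, Mmp27, Adamts16 and Adamts19, whose lowest groups hold few counts.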
